A study of Xenopus laevis x Xenopus muelleri with 8 samples.

Results

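The normal ovary of a Xenopus hybrid was described from 4 arrays, which were chosen by their titles out of the 8 arrays of the series. The animals had an X. laevis mother from the Cape of South Africa and an X. muelleri father from Swaziland, and no sex reversal was recorded for them. They had been raised from the egg and were sexually mature, were killed in the anaesthetic MS222, and their ovaries were taken at once. Their age in years and the number of animals behind an array were not given in the sources used here, although the titles call the arrays biological replicates. The source name of these arrays said testis, whereas their titles, their descriptions and the series design said ovary. The tissue was therefore checked against cell type markers before the gene families were described. Each array carried biotin-labelled RNA on an Affymetrix X. laevis chip and yielded 11485 probe-set values on the log2 scale. The ovaries of sex-reversed animals in the same series were not analysed here.

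A frog ovary is filled by oocytes, which grow for months in meiotic arrest and store messenger RNA, ribosomes, histones and mitochondria for the embryo. Many of these messages are held untranslated until hormone-induced maturation, when cyclin B and its kinase drive the meiotic divisions. Yolk protein is made in the liver and taken up from the blood, while a thin wall of follicle cells, theca, vessels and stroma surrounds each oocyte. X. laevis is an allotetraploid in which many genes persist as homeologous copies, which the symbols mark with the endings .L and .S.

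Probe sets were ordered by their mean over the 4 arrays. The top 5% held 574 probe sets and the bottom 25% held 2871. A probe set's value also carries the affinity of its probes, so the order is one of probe-set values and not of transcript amounts between genes. Probe sets with 1 gene symbol made up 458 of the 574 in the top and 1342 of the 2871 in the bottom, against 6798 of 11485 in all. When each of the 5790 named genes was placed by its highest probe set, 445 genes (7.69%) lay in the top and 1023 genes (17.7%) in the bottom 25%. These shares are the background for every count of genes below. A percentile is the percentage of probe sets ranked at or below a value, and groups of 4 numbers follow the order of replicates 1 to 4.

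Both limits fell among closely spaced values. Just inside the top were adss2.L, nfkbie.L and psap.S at means of 10.003, 9.9997 and 9.997 (log2), and just outside it were top3a.L, hpgds.S and jpt2.L, at 9.995, 9.993 and 9.993. Membership near the limit thus rested on differences smaller than the spread between arrays. The inhibitor-family gene nfkbie.L, for instance, measured 10.70, 8.55, 10.24 and 10.51. At the lower limit, harbi1.L, ell.S and aplnr.S lay inside the bottom 25% at 4.05, 4.05 and 4.05, and tmod4.L, klc1.S and elf1.L outside it at 4.06, 4.06 and 4.06.

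The 4 arrays had much the same overall distribution, with medians between 6.01 and 6.04 and highest values between 13.37 and 13.85. Quantile normalization of the arrays brings this about, so it is no sign of likeness between the samples. The orders of probe sets on the arrays were close but did not pair evenly. Spearman's correlation over all probe sets was highest between replicates 1 and 4 (0.959) and next between replicates 2 and 3 (0.951), and the other 4 pairs lay between 0.936 and 0.945. These correlations are descriptions over probe sets, which are not independent and which share the normalization. Some genes named below followed this pairing, and their 4 values are given for that reason. What set the pairs apart was not tested.

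Most oocyte markers lay high in the order. The median percentiles of testis, blood and liver markers were far lower, although some testis and blood genes lay above the middle. Of 16 oocyte markers chosen, the array named 12 genes. Among these, 8 were in the top and 0 in the bottom 25%, and their median percentile was 96.5. General germline genes, such as ddx4.L and dazl.L, are counted here and do not by themselves separate ovary from testis. The lowest of the 12 was zar2.S, at 6.72, 6.83, 6.10 and 6.04 and percentile 55.4. The transcription factor gtf3a.L, which also binds small ribosomal RNA stored in young oocytes, measured 11.44, 11.63, 10.98 and 11.25. The maternal-effect gene zar1.S measured 11.25, 11.50, 10.52 and 11.14, and the egg envelope gene zp2.L measured 11.05, 10.87, 10.94 and 11.01. Replicate 3 had the lowest value of gtf3a.L and zar1.S, while zp2.L differed little between arrays. The meiotic kinase gene mos.L averaged 10.47 ± 0.24 and the histone-storage chaperone gene npm2.S 10.34 ± 0.68 (SD, n = 4). The growth factor gdf1.S, known in the frog as Vg1, was less steady at 9.19, 10.19, 7.61 and 10.45, again lowest in replicate 3. The markers npm2.S and zp4.S were also lowest in replicate 3. Other oocyte markers went the other way, since ddx4.L, zpd.L, dazl.L and pld6.S were highest there, at 10.93, 10.51, 9.63 and 9.15.

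Of 15 testis and sperm markers chosen, the array named 6 genes. Among these, 0 were in the top, against 7.69% of all named genes, and 2 in the bottom 25%, against 17.7%. Their median percentile was 25.7. The highest was the cysteine-rich secretory protein gene crisp1.5.S, at 6.59 ± 0.37 (SD, n = 4). The Sertoli cell factor sox9.S averaged 5.48 ± 0.70, and the flagellar genes spag6.L and tekt1.L averaged 4.03 ± 0.45 and 3.80 ± 0.47 (SD, n = 4). The oocyte markers fit the ovary named in the titles, while the median percentile of the few testis markers measured was lower. The lists were chosen with earlier results of these data known, so this is no independent check of the tissue. Of 11 liver markers 7 were in the bottom 25%, with a median percentile of 10.5. Granulosa and follicle wall markers took a middle position, with 0 of 7 in the top, 0 in the bottom and a median percentile of 60.6. Among them the steroid enzyme cyp17a1.L measured 5.68, 10.42, 9.09 and 9.41, so replicate 1 stood far below the other arrays. The follicle-stimulating hormone receptor fshr.L lay at 5.04, 5.08, 5.09 and 4.98. In whole tissue, fewer cells of a type and less RNA per cell cannot be told apart.

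Vascular, blood and connective tissue markers were mixed. The 5 erythrocyte markers had a median percentile of 9.34 and 3 lay in the bottom 25%, yet the globin gene hbg2.L measured 8.17, 7.93, 8.52 and 8.05. Leukocyte markers gave 0 of 4 in the top and 2 in the bottom 25%, and the pan-leukocyte phosphatase ptprc.L averaged 2.85 ± 0.20 (SD, n = 4). The invariant chain gene cd74.L, used by antigen-presenting cells, measured 6.83, 6.74, 8.90 and 6.99, highest in replicate 3. The other leukocyte markers did not follow it, with ptprc.L lowest in replicate 3, cd247.S highest in replicate 4 and lcp1.S highest in replicate 2. Stroma markers had a median percentile of 49.7, and 1 of 7, the matrix gene fn1.S, was in the top at 11.30, 11.20, 11.01 and 11.38. The lowest of the probe sets of fn1.S averaged 5.70. Lumican, lum.L, measured 3.94, 4.41, 6.06 and 4.58, and replicate 3 was the highest. The stroma markers sparc.S, col3a1.S and pdgfra.L were also highest in replicate 3. By contrast, fn1.S and sparc.L were lowest there, and col1a1.S was highest in replicate 2. The list mean over the stroma markers ran from 6.46 in replicate 1 to 6.95 in replicate 3. Skeletal muscle markers had a list mean of 4.21, 4.80, 4.69 and 4.02, higher in replicates 2 and 3. That difference came mostly from a single gene, skeletal actin acta1.S, which measured 3.372, 6.567, 5.969 and 3.003. The markers mylpf.L and tnnc2.L were also highest in replicates 2 and 3, but by far less, with mylpf.L between 5.95 and 6.43. The rest of the list, ckm.L, tnnc2.S and actn3.L, did not divide the arrays in this way. Smooth muscle markers had 0 of 6 in the top and 2 in the bottom 25%, and endothelial markers 0 of 4 and 1. How far such tissue contributed to other genes was not tested.

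**Figure D1:**
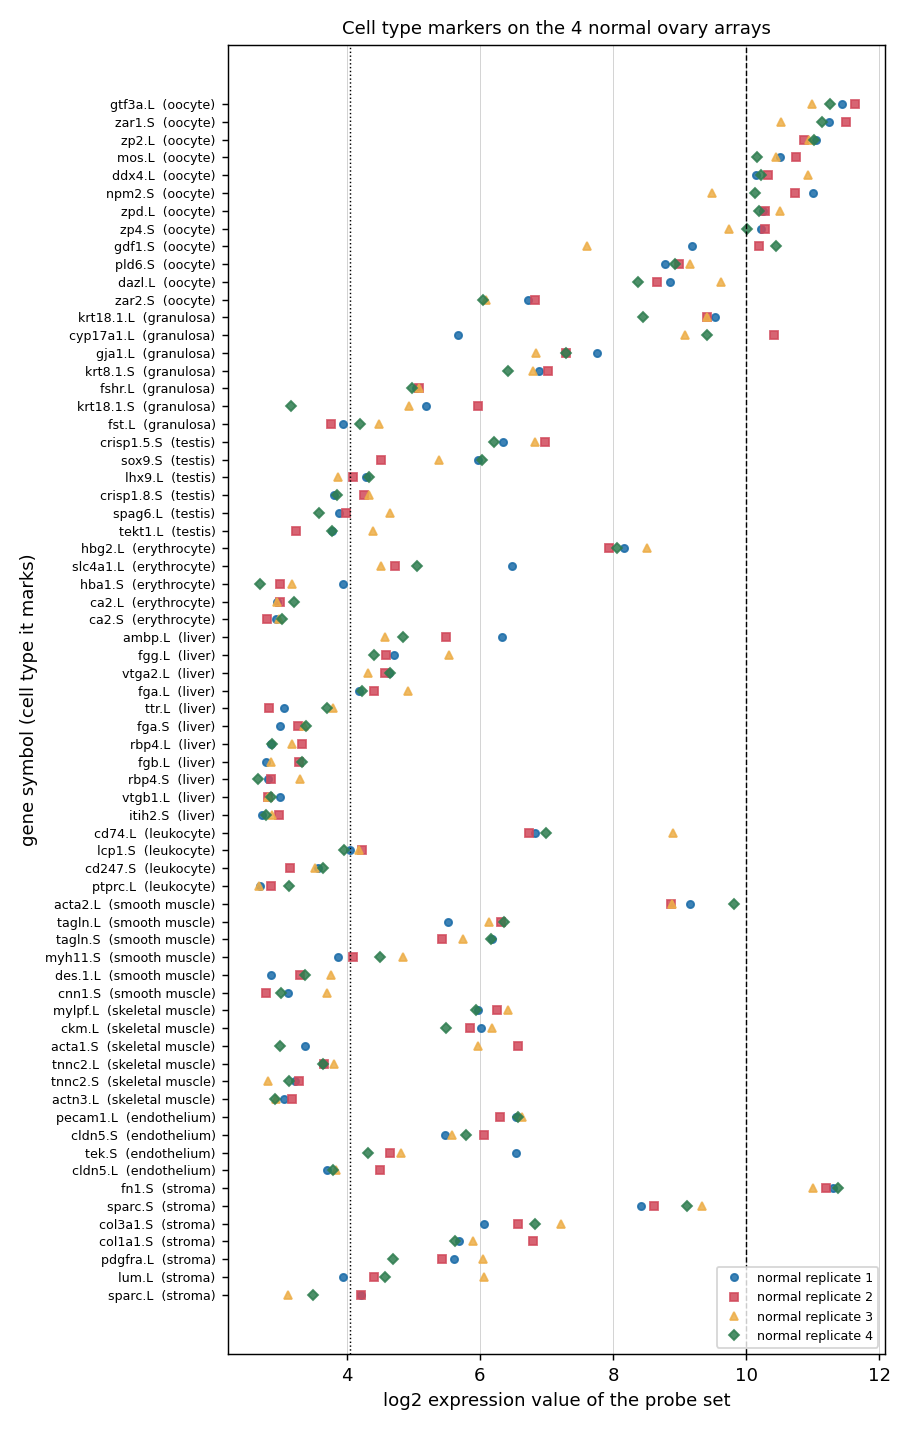
Log2 expression value of each cell type marker gene (rows, with the cell type it marks) on the 4 normal ovary arrays, 1 symbol per array, with the lower limit of the top 5% as a dashed line and the upper limit of the bottom 25% as a dotted line. Of 12 oocyte genes 8 lay above the dashed line on their means, and 0 of the liver, erythrocyte and testis genes did, although several, such as hbg2.L at 8.17 and crisp1.5.S at 6.59, lay well to the right of the dotted line. Over all named genes 7.69% lay in the top 5%, so lists this small can be expected to hold few or 0 there.

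The 30 highest named genes were led by genes of chromatin, replication, the cell cycle and the ribosome. They filled places between 1 and 39, since probe sets with no single symbol stood between them. Highest was the probe set listed as h2afx, an older symbol for the histone variant H2A.X, at 12.44, 13.83, 13.85 and 13.50. Replicate 1 was more than a log2 unit below the other arrays. The current symbol for that variant is listed on another probe set as h2ax.S, which averaged 4.16, so the place of H2A.X depends on the probe set read. Whether the probes listed as h2afx also match other histone genes was not examined. Next came pcna.L, the sliding clamp of DNA polymerase, at 13.37, 13.30, 13.31 and 13.52. The maintenance DNA methyltransferase dnmt1.L measured 13.18, 13.02, 13.16 and 13.26. Both were in the top on every array, and their 4 values spanned less than 0.3 log2 units.

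Cyclins held 4 of the 30 places. The mitotic cyclin ccnb1.S measured 13.20, 13.26, 13.10 and 13.13 and ccnb1.2.L 13.10, 13.18, 13.20 and 13.20. The germline cyclin ccna1.S averaged 12.94 ± 0.09 and ccnb2.L 12.09 ± 0.19 (SD, n = 4). The small kinase-binding protein cks2.S averaged 12.14 ± 0.20 (SD, n = 4). These SDs were small next to the gap of more than 2 log2 units between each mean and the limit of the top. The importer of replication protein A, rpain.S, had an SD of 0.04 around 12.92 and was the steadiest of the 30.

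Ribosomal protein genes held 6 of the 30 places, with rpl10.S, rpl35a.S, rpl13a.L, rpl11.S, rps27.S and rpl23.S between 13.17 and 12.32. Another probe set of rpl35a.S averaged 4.47. RNA-processing genes in the set were hnrnpu.S, an abundant nuclear RNA-binding protein, at 12.38, the spliceosomal protein gene snrpa.S at 12.18, and casc3.S, of the exon junction complex, at 12.27. Histone handling was represented by the variant h2az1.L at 12.75 and the chaperone nap1l1.L at 12.36. The reductase subunit rrm2.2.L, which makes deoxynucleotides, had 12.29. Energy genes were cox6a1.L of cytochrome oxidase at 12.67, the ADP/ATP carrier slc25a5.L at 12.36 and the glycolytic kinase pgk1 at 12.12.

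Not all of the 30 were steady. The cysteine-degrading dioxygenase cdo1.S measured 11.36, 12.80, 12.49 and 11.71, and the gene listed as LOC100037078 measured 11.34, 12.86, 12.67 and 12.07. Both were higher in replicates 2 and 3 than in replicates 1 and 4. The repair regulator parpbp.L stood at 11.89, 11.88, 12.19 and 12.98, highest in replicate 4. The ubiquitin ligase adaptor spsb1.S and the genes listed as XB5888885.S and LOC398156 averaged 13.17, 13.21 and 12.68 with SDs of 0.22, 0.17 and 0.12.

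**Figure D2:**
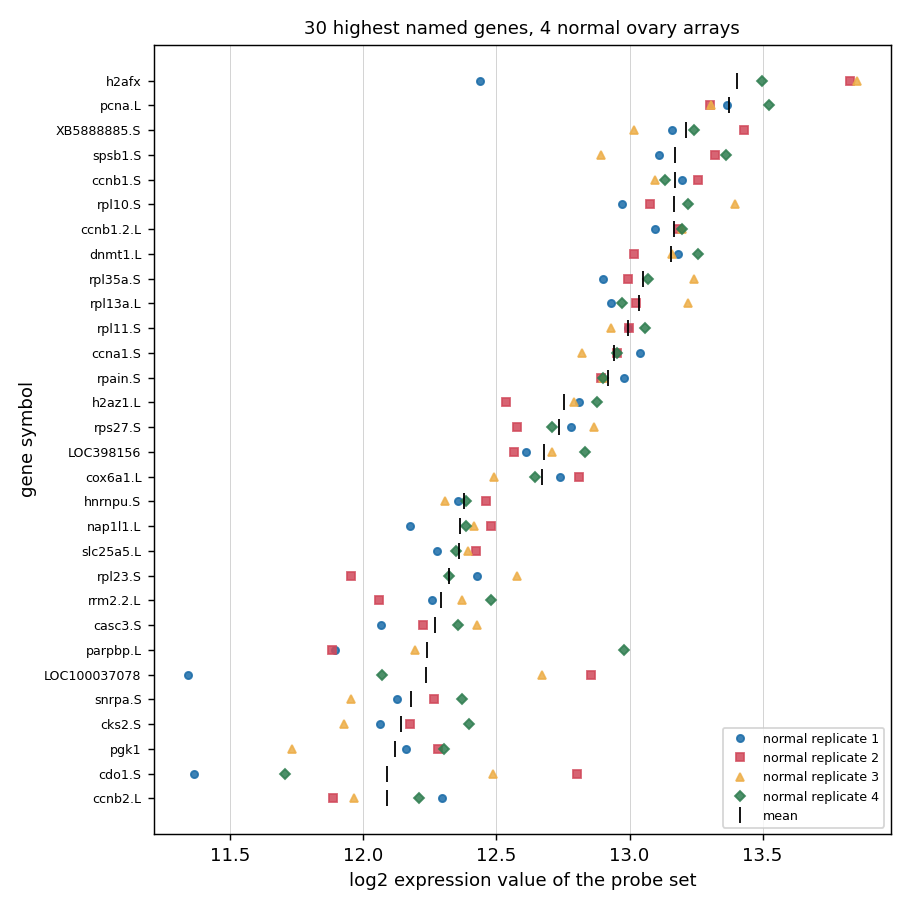
Log2 expression value of the 30 highest named genes (rows, in order of their mean) on the 4 normal ovary arrays, 1 symbol per array. Most genes show 4 nearly coincident values, as for rpain.S (SD 0.04), while h2afx, cdo1.S, LOC100037078 and parpbp.L spread over more than 1 log2 unit.

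The gene lists covered 186 of the 445 genes in the top, so the families below describe only those. Of 44 cytosolic ribosomal protein genes 24 were in the top, 22 of them on every array, against 7.69% of all named genes, and 2 were in the bottom 25%. The median gene of that list measured 10.44, 10.29, 10.20 and 10.26, at percentile 96.5, beside percentile 61.3 over all genes. The family nevertheless ran down to rpl28.L at 3.31 and the muscle-type paralog rpl3l.L at 3.83. Near-identical ribosomal paralogs can share probes, and this was not examined. Of 40 translation factor genes 9 were in the top and 3 in the bottom 25%. The elongation factor eef1a1.S measured 11.60, 11.54, 12.22 and 12.00, and the initiation helicase family member eif4a3.1.S and the elongation factor eef2.1.L averaged 11.21 and 11.16. Lowest were the initiation factors eif2s3.S at 2.82, eif2a.S at 3.54 and eif3k.L at 3.65.

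Ribosome assembly genes stood beside them, with 6 of 15 in the top and a median percentile of 91.4. The nucleolar protein ncl.S measured 11.68, 11.33, 11.48 and 11.11, and snu13.L, nop56.L, gnl3.L, nop10.S and npm1.L lay between 10.86 and 10.11. The ribosomal DNA transcription factor ubtf.L was the 1 member in the bottom 25%, at 3.24, 2.81, 3.18 and 3.71.

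Messages of the oocyte's own stores were next. Of 37 genes of mRNA storage and translation control 9 lay in the top and 2 in the bottom 25%, with a median percentile of 80.8. The maternal mRNA decay adaptor btg4.L averaged 12.02 ± 0.33 and its homeolog btg4.S 11.45 ± 0.17 (SD, n = 4). The RNA-binding protein hnrnpab.L measured 12.17, 11.45, 11.35 and 10.30, lowest in replicate 4. The vegetally localised RNA-binding protein gene rbpms2.S averaged 10.59 ± 0.12 (SD, n = 4), but another of its probe sets averaged 3.61. The cold-shock domain protein ybx3.S and the poly(A) polymerase papola.S were the members in the bottom 25%, at 3.96 and 3.33.

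All 3 egg envelope glycoprotein genes measured were in the top, zp2.L at 10.97, zpd.L at 10.31 and zp4.S at 10.07. Of these, zp4.S was in the top on 2 of 4 arrays, at 10.22, 10.29, 9.74 and 10.01, the last of which lay just under the limit of its own array. Of 13 germ plasm and piRNA genes 2 were in the top and 0 in the bottom 25%, and the median percentile was 87.9. The germline helicase ddx4.L, the vasa homolog, measured 10.15, 10.32, 10.93 and 10.22, and grip2.L, a germ plasm message in the frog, measured 10.08, 10.16, 10.13 and 9.97. Below the limit lay ddx25.L at 9.54, dazl.L at 8.88, tdrd6.L at 8.87 and nanos1.L at 8.67. Among 22 localised maternal messages 4 were in the top, including the lipid droplet coat gene plin2.S, known in the frog as fatvg, at 11.54, 11.98, 11.66 and 11.38. The endoderm determinant vegt.L followed at 10.26, 10.20, 10.33 and 10.43. The signal wnt11.S, also placed on that list, was in the bottom 25% at 3.51, 3.17, 3.24 and 3.66. Whether this symbol denotes the vegetally localised Wnt11 gene was not examined.

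Meiotic and mitotic regulators had 23 of 54 genes in the top, 21 of them on every array, and 2 in the bottom 25%. The kinase aurka.L averaged 11.75 ± 0.05, aurka.S 11.23 ± 0.07 and the survivin gene birc5.L 11.77 ± 0.14 (SD, n = 4). The Polo kinase plk1.S measured 11.03, 10.79, 10.52 and 10.77, and the cyclin-dependent kinase cdk1.L 10.06, 10.16, 10.55 and 10.46. Both stayed in the top on all 4 arrays. The exceptions were ccne2.L, an E-type cyclin, at 3.02 and ensa.S, an inhibitor of the cyclin B-opposing phosphatase, at 2.97. The B-type cyclin ccnb2.S was divided between arrays at 8.17, 11.75, 11.84 and 8.09, high in replicates 2 and 3, whereas its homeolog ccnb2.L measured 12.29, 11.89, 11.97 and 12.21.

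Replication genes had 9 of 46 in the top and 3 in the bottom 25%. The origin-loading factor cdc6 had both copies in the top, cdc6.L at 11.50 and cdc6.S at 11.32, and the helicase subunit mcm3.L averaged 10.80. The lowest were mcm8.L, a helicase of repair, at 2.99 and mcm6.2.L at 3.52. A copy listed as zmcm3.L, the zygotic form of mcm3, had 3.77, against 10.80 for mcm3.L on other probes.

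Histones did not stand together. Of 14 measured genes 3 were in the top, h2afx, h2az1.L and h3-3b.L, the last at 11.06, 10.68, 11.25 and 11.37, and 4 were in the bottom 25%. The lowest were h2ac14.L at 3.28 and hist2h3c at 3.55, and h2ax.S measured 3.94, 4.27, 4.11 and 4.33 just above that range. Histone genes were thus found at both ends of the order. Histone chaperones and HMG proteins were higher as a list, with 9 of 24 in the top and a median percentile of 93.9. The chromatin protein hmgb2.S averaged 11.89 ± 0.11 (SD, n = 4). The histone chaperone nasp.S measured 12.30, 9.43, 12.24 and 12.25, so that replicate 2 alone was low, while nasp.L measured 11.11, 11.26, 11.09 and 11.08.

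Nuclear and splicing machinery was well represented. Of 71 splicing and hnRNP genes 16 were in the top and 2 in the bottom 25%, and of 43 nuclear pore and transport genes 10 were in the top and 0 in the bottom 25%. The transport GTPase ran.S averaged 12.00 ± 0.17, the pore protein nup153.L 11.75 ± 0.17 and the export receptor cse1l.L 11.48 ± 0.05 (SD, n = 4). The splicing factor srsf2.L measured 11.90, 12.24, 11.82 and 12.03. At the other end lay snrpf.S, a core snRNP protein, at 2.76 and hnrnpa2b1.L at 2.82.

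Lists of energy metabolism differed in position. Nuclear genes of oxidative phosphorylation had 14 of 44 in the top and 1, cox4i2.L, in the bottom 25%, with a median percentile of 88.8. The ATP synthase subunits atp5f1b.S and atp5pd.L averaged 11.99 ± 0.23 and 11.85 ± 0.27, and ndufa3.L of complex I averaged 11.48 ± 0.15 (SD, n = 4). The ATP synthase inhibitor atp5if1.L was less steady at 11.40, 9.77, 11.75 and 10.78. Glycolysis and citric acid cycle genes had 9 of 34 in the top. Among them were the malate dehydrogenases mdh1.S at 11.81 and mdh2.S at 11.47 and the isomerase tpi1.S at 11.76 (4.07 on another probe set). The 4 members of that list in the bottom 25% were the hexokinases hk1.L and hk2.L, the phosphofructokinase pfkp.L and the isocitrate dehydrogenase idh1.L. Of these hk2.L measured 2.80, 2.95, 5.98 and 3.20, and pfkp.L 3.19, 5.03, 2.91 and 2.96, each raised on a single array. Mitochondrial carriers and import genes lay near all named genes as a list, with 2 of 30 in the top and 5 in the bottom 25%. Their median percentile was 59.7, beside 61.3 over all genes.

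Cytoskeletal genes gave 4 of 12 tubulins and 5 of 23 actin-related genes in the top. The cytoplasmic actin actg1.L averaged 11.63 ± 0.09 and the actin-severing cofilin cfl1.S 11.56 ± 0.12 (SD, n = 4). The tubulin tubb4a.S measured 11.82, 12.04, 11.41 and 11.59, and tubb4b.L measured 12.58, 12.61, 12.31 and 9.10, low in replicate 4 alone. Its homeolog tubb4b.S measured 10.56, 7.23, 10.39 and 10.33, low in replicate 2 alone. The neural tubulin tubb2b.S was in the bottom 25% at 2.80.

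Protein turnover, traffic and chaperone genes had shares in the top near the 7.69% of all named genes. Of 32 proteasome genes 2 were in the top, psmd6.S at 10.32 and psmb5.L at 10.05, 3 were in the bottom 25%, and the median percentile was 62.1, near the 61.3 of all genes. The core subunit psma3.L had one of the lowest means of any named gene, at 2.66, 2.71, 2.72 and 2.30. Vesicle traffic had 7 of 99 genes in the top and 8 in the bottom 25%, led by the translocon subunit sec61b.L at 11.56 and the clathrin heavy chain cltc.L at 10.74. Chaperones had 7 of 68 in each end, with the co-chaperone dnaja1.L at 11.51, the constitutive heat shock protein hspa8.L at 10.89 and the stress-inducible hsp70.L at 3.32.

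Lysosomal and redox genes included several that differed between arrays. Cathepsin B, ctsb.S, a protease that also acts on yolk in oocytes of other vertebrates, measured 12.44, 12.52, 12.76 and 9.56. Cathepsin C, ctsc.L, measured 9.15, 12.00, 11.82 and 9.05. Replicate 4 was low for both, and replicate 1 for ctsc.L only. The proton pump subunit atp6v0c.L was steadier at 10.77, 11.48, 10.98 and 10.75. Of 33 redox genes 5 were in the top and 7 in the bottom 25%, with the glutaredoxin glrx5.S at 11.62 and the lipid peroxidase gpx4.L at 11.39 in the top and the secreted peroxidases gpx3.L at 2.96 and gpx3.S at 3.10 in the bottom. Glutathione peroxidase family members thus lay at both ends.

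**Figure D3:**
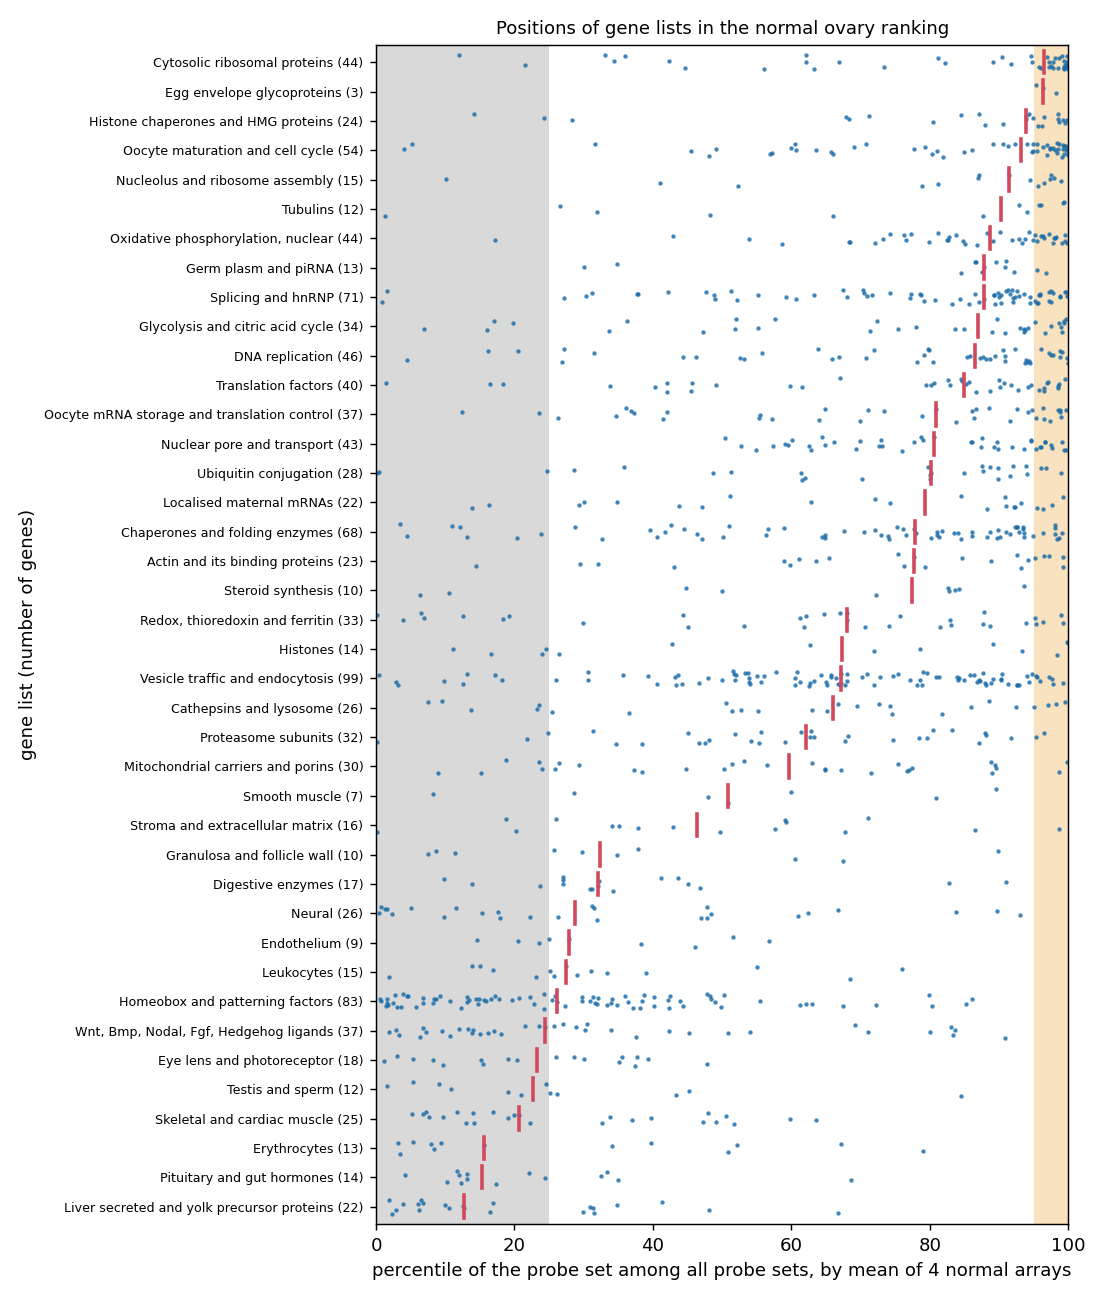
Percentile of every member gene (points) in the order of all 11485 probe sets by mean over the 4 normal ovary arrays, by gene list (rows, with the number of genes), with list medians as vertical bars, the bottom 25% in grey and the top 5% in orange. The ribosomal protein, egg envelope, histone chaperone and HMG, and maturation and cell cycle lists have medians above percentile 93, and the liver, hormone, erythrocyte, and skeletal and cardiac muscle lists have medians below percentile 21.

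Steroid synthesis genes lay between the limits for the most part, with 0 of 10 in the top and 2 in the bottom 25%. The reductases srd5a3.S and srd5a1.S averaged 9.75 ± 0.14 and 8.60 ± 0.53, and the electron carrier fdx1.L 8.51 ± 0.35 (SD, n = 4). The list median was 6.78 in replicate 1, beside 7.93, 7.89 and 8.06 on the other arrays, and cyp17a1.L was also lowest there. The nuclear receptor copies nr5a2.L and nr5a2.S were in the bottom 25% at 3.07 and 3.26. Of 10 granulosa and follicle wall genes 0 were in the top and 3 in the bottom 25%, namely both estrogen receptor copies, esr1.L at 3.29 and esr1.S at 3.12, and gata4.S, a gonadal transcription factor, at 3.18. The median percentile of these 10 genes was 32.3, beside 60.6 for the 7 markers given above. The follicle keratin krt18.1.L measured 9.54, 9.41, 9.42 and 8.45, and its homeolog krt18.1.S measured 5.19, 5.97, 4.94 and 3.16.

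Lists of genes made by other organs had many of their members in the bottom 25%, although only 211 of the 1023 genes there belonged to any list. Of 22 liver genes 0 were in the top and 14 in the bottom, 13 of them on every array, against 17.7% of all named genes. The yolk precursor vtgb1.L measured 3.003, 2.825, 2.821 and 2.865, and vtga2.L measured 4.64, 4.58, 4.32 and 4.66, above the limit. The inter-alpha-trypsin inhibitor chain itih2.S averaged 2.85 and the retinol carrier rbp4.S 2.91. The plasma protein ahsg.L was the highest of the list and differed on 1 array, at 7.75, 5.26, 7.95 and 7.95.

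Hormone genes of pituitary and gut had 10 of 14 members in the bottom 25%, including insulin, ins.S, at 2.80, 3.15, 3.44 and 3.58 and the gut peptide vip.L at 2.97. The shared pituitary subunit gene cga.S was the highest of the list at 7.02, 7.45, 7.53 and 7.52. Muscle genes had 14 of 25 in the bottom 25%, among them the troponin C gene tnnc2.S at 3.11 and the cardiac factor nkx2-5.S at 3.09. Eye genes had 9 of 18, with the photoreceptor phosphodiesterase subunit pde6h.S at 2.79 and crx.S at 2.92. Neural genes had 12 of 26, led from below by the synaptic protein snap25.S at 2.58, 2.64, 3.25 and 2.32 and the patterning factor en2.L at 2.74. In the same list sox3.S and sox11.S, both also known as maternal messages in the frog, measured 9.66 ± 0.21 and 9.18 ± 0.31 (SD, n = 4).

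Embryonic regulators were also frequent in that range. Of 83 homeobox and patterning genes 39 were in the bottom 25% and 0 in the top, with tbx1.L at 2.74, snai2.S at 2.82 and hoxb7.S at 2.83 among the lowest. The highest of the list were ventx2.1.L at 8.63, 8.95, 9.35 and 8.40 and msx1.S at 8.64, 8.53, 9.15 and 8.62. Of 37 secreted ligands and antagonists 19 were in the bottom 25%, with frzb2.L at 2.85 and dhh.S at 2.93. The highest ligand was gdf1.S at 9.36, and other high members were the pseudoreceptor bambi.S at 8.60 and fgf4.L at 8.54.

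The gene lists of other ovarian and blood tissue gave 0 members in the top apart from fn1.S in the stroma list of 16. These lists differ from the marker sets above, and the smooth muscle list does not hold all of the smooth muscle markers. In the bottom 25% lay 3 of 16 stroma genes, 1 of 7 smooth muscle genes, 4 of 9 endothelial genes, 5 of 15 leukocyte genes and 7 of 13 erythrocyte genes. Testis and sperm genes had 7 of 12 there and digestive enzymes 3 of 17, with 0 of either in the top. Over all named genes 17.7% lay in the bottom 25%. The stroma (18.8%), smooth muscle (14.3%) and digestive enzyme (17.6%) lists were near that share. Ubiquitin conjugation genes, by contrast, had 3 of 28 at each end.

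A list of 127 genes familiar from cell and developmental biology had 24 members (18.9%) in the top and 28 (22.0%) in the bottom 25%. Over all named genes these shares were 7.69% and 17.7%, so the count in the bottom was near the background. In the top, besides those above, were the growth factor receptor igf1r.S at 10.64, ornithine decarboxylase odc1.L at 10.43, beta-catenin ctnnb1.L at 10.15, the Wnt effector tcf7l1.L at 10.07 and rpl8.S at 10.54. The reference genes often used for normalization lay apart from each other when placed by their highest probe sets. The glycolytic enzyme gapdh.L measured 9.89, 10.26, 10.12 and 9.84 and was in the top on 2 of 4 arrays, the actin actb.L averaged 9.85 ± 0.23 and the TATA-binding protein tbp.S 9.93 ± 0.13, both just below. The cyclophilin ppia.S stood at 5.75 ± 0.18 and its homeolog ppia.L at 3.87, 5.76, 3.18 and 4.58 (SD, n = 4). Another probe set of actb.L averaged 5.58, below ppia.S, so the place of actb.L depends on the probe set read.

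The 28 well-known genes of the bottom 25% came from several roles. Lowest was the neural and stem cell factor sox2.L at 2.899, 2.627, 2.761 and 3.005, followed by E-cadherin, cdh1.S, at 2.86. N-cadherin, cdh2.S, was there at 3.28, and its homeolog cdh2.L lay outside at 4.97. Signals were fgf8.L at 3.07, kitlg.L at 3.10, bmp4.S at 3.11 and the Notch ligand dll1.L at 3.14. Transcription factors were the mesoderm gene tbxt.S at 3.37, the organizer gene gsc.L at 3.55, hoxa7.L at 3.58, pax2.L at 3.60, junb.L at 3.38, rel.L at 3.29, the erythroid gata1.L at 3.49 and gata4.S. Nuclear receptors besides esr1 were nr3c1.L, the glucocorticoid receptor, at 3.69 and rxra.L at 3.79.

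The other well-known genes there were products of distant tissues and a few further cases. The prohormone pomc.L averaged 3.87 and pomc.S 3.36, transthyretin, ttr.L, 3.35, the globin hba1.S 3.20 and tnnc2.L 3.69. The histone gene h4c4.L measured 3.76, 3.45, 4.02 and 4.69, and so left the bottom 25% on 1 array. The stem cell factor receptor kit.L, which acts in germ cells, measured 3.80, 3.92, 4.16 and 3.76, whereas kit.S lay in the middle of the order at 6.22, 6.50, 5.72 and 6.39. With no background measure on these arrays, a low value is not evidence that a transcript was absent.

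The 20 lowest named genes had means from 2.38 to 2.70. Lowest was hcfc1.S, a transcriptional coregulator, at 2.44, 2.32, 2.47 and 2.28. Collagen genes of cartilage were among them, col2a1.S at 2.44, 2.83, 2.37 and 2.71 and col9a1.L at 2.79, 2.83, 2.67 and 2.39. General cellular genes appeared there too, with cul1.S, a ubiquitin ligase scaffold, at 2.60, the proteasome subunit psma3.L at 2.60 and the BMP receptor bmpr1a.S at 2.65. For cul1 and bmpr1a the other homeolog lay far higher, with cul1.L at 8.68, 8.53, 8.66 and 8.99 and bmpr1a.L at 8.93, 8.55, 8.94 and 8.92.

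The order was steadiest at the top. Of the 574 probe sets in the top by mean, 416 (72.5%) were in the top 5% of all 4 arrays, 101 of 3 arrays, 51 of 2 and 6 of 1. Of the 2871 in the bottom 25%, 2077 (72.3%) were in the bottom 25% of all 4 arrays, 522 of 3, 248 of 2 and 24 of 1. No member of the top fell into the bottom 25% of any array. The reverse could not occur, since a value in the top on 1 array would lift the mean above the bottom 25%. The lowest percentile that a top member had on any array was 68.3, and the highest of a bottom member was 59.9. Any pair of arrays shared between 474 and 492 of their 574 top probe sets, and between 2387 and 2482 of their 2871 bottom ones.

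The percentile of a probe set ranged over a median of 8.89 points between its lowest and highest array. In the highest 5% of the order the median range was 1.14 points, between percentiles 15 and 20 it was 12.5 points, and in the lowest 5% it was 7.18 points. In log2 units the median SD over 4 arrays was 0.184 in the top, 0.316 between the limits and 0.273 in the bottom 25%. Within the top the arrays still ordered the members alike, with Spearman's correlation between 0.768 and 0.824. Within the bottom 25% it lay between 0.474 and 0.567, so the order of the low genes among themselves was much less settled than their membership. Choosing members by the mean over the same arrays narrows each set, and these correlations are descriptions only.

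**Figure D4:**
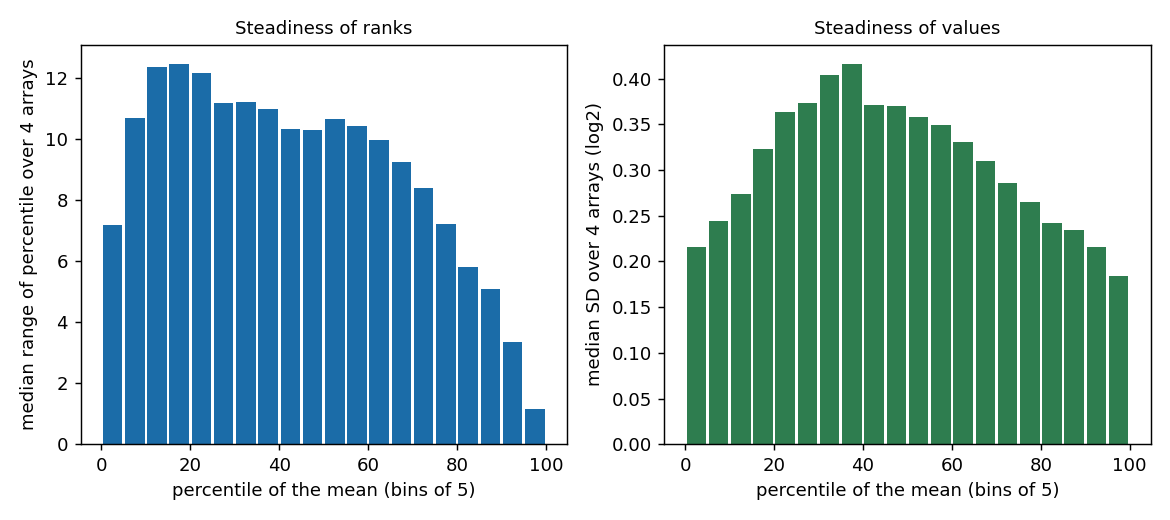
Median range of percentile over the 4 normal ovary arrays (left) and median SD of the log2 value over those arrays (right), each bar covering 5 percentile points of the order by mean. On the left, bars stand at 1.14 points in the highest 5%, 12.5 points between percentiles 15 and 20 and 7.18 points in the lowest 5%, and on the right the highest values lie between percentiles 30 and 40.

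Large gaps between arrays were not rare. In 2864 probe sets (24.9%) the highest and lowest array differed by more than 1 log2 unit, and in 250 (2.18%) by more than 3. Of these 250, replicates 1 and 4 lay apart from replicates 2 and 3 in 62, while the other pairings accounted for 12 and 9. A single array stood apart in the remaining ones, replicate 1 in 39, replicate 2 in 44, replicate 3 in 44 and replicate 4 in 40. The 1 + 4 against 2 + 3 division was thus the most frequent pattern, and it falls between the same arrays as the pair correlations given above.

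Widest of the named probe sets was gsta1.L, a glutathione transferase, at 11.20, 3.15, 3.80 and 11.19, in the top on 2 arrays and in the bottom 25% on 2. The oocyte-type elongation factor 42sp50.L, part of a storage particle of young frog oocytes, measured 9.08, 9.09, 8.65 and 3.06, low in replicate 4 alone. A probe set of the transcription factor myc.S measured 8.64, 2.40, 8.82 and 8.80, low in replicate 2 alone, while myc.L was steady at 9.58, 9.62, 9.78 and 9.82. The cell cycle gene cdca7l.S was high in replicates 2 and 4, at 3.80, 9.13, 3.56 and 9.50. The phospholipid scramblase plscr2.S was high in replicate 4 alone, at 4.18, 5.95, 5.76 and 10.62.

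For srsf2.L a probe set measured 9.60, 3.82, 3.94 and 9.53, while its highest probe set, given above, varied by less than 0.5 log2 units. The remaining wide genes were nol12.S and ddt.L, high in replicate 3 alone, fhl1.L, high in replicate 1 alone, sephs3.L and mcts1.L, low in replicate 4 alone, aifm2.S, baf-l.L and myl12b.L, low in replicate 3 alone, and nsmce1.L, low in replicates 2 and 4. What divided the arrays at these probe sets was not tested.

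**Figure D5:**
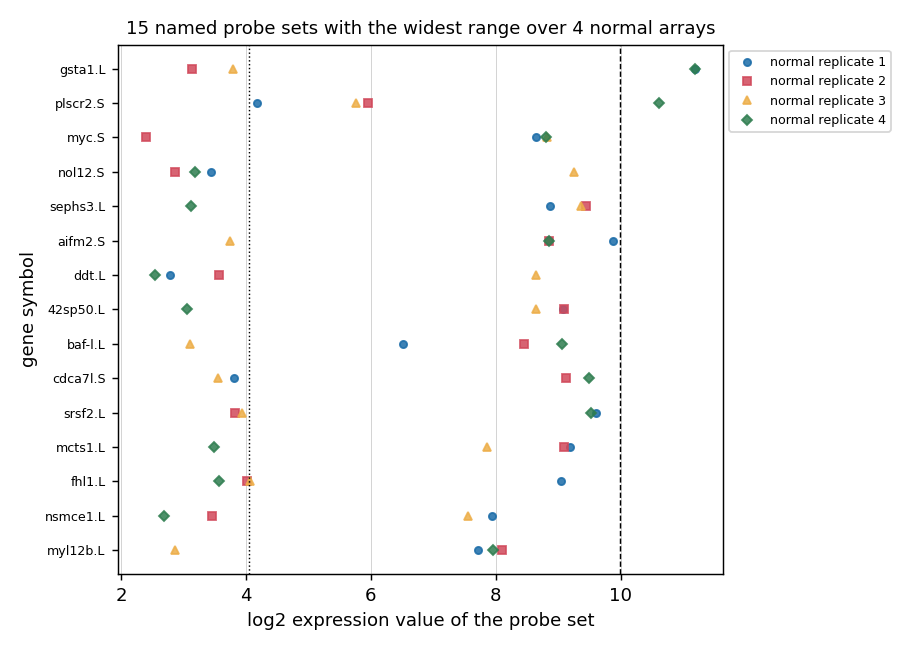
Log2 expression values of the 15 named probe sets with the widest range over the 4 normal ovary arrays (rows), 1 symbol per array, with the lower limit of the top 5% dashed and the upper limit of the bottom 25% dotted. The values fall into a high and a low cluster for most genes, as for gsta1.L, at 11.20 and 11.19 in replicates 1 and 4 and at 3.15 and 3.80 in replicates 2 and 3.

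Different probe sets of a gene often disagreed. Among 777 genes with 2 or more probe sets, the percentiles spanned a median of 22.8 points, and 129 genes spanned more than 50. Of 92 such genes with a probe set in the top, 6 had all of theirs there and 13 had another in the bottom 25%. The elongation factor eef1a1.S measured 11.84 on one probe set and 3.15 on another, the ribosomal gene rpl34.L 11.76 and 3.18, and the translocon-associated ssr4.S 11.15 and 2.98. These genes were picked for that gap, so its presence on every array is no further result. For eef1a1.S the low probe set measured 3.173, 3.004, 3.169 and 3.259. A gene's place by its highest probe set is therefore an upper reading of its position. Lower probe sets are given above for only some genes. Those of spsb1.S, nup153.L and hmgb2.S, for instance, averaged as low as 6.14, 5.02 and 6.26.

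Homeologs were compared by position only, since each has its own probes, and cross-hybridisation between copies was not examined. Of 622 genes with both copies named, 19 had both in the top, 83 had 1 copy there, 39 times the .L and 44 times the .S copy, and 520 had neither. Both copies were in the bottom 25% in 50 genes and 1 copy in 122. The 19 genes with both copies high included the cell cycle genes aurka, birc5, cdc20 and cdc6, the chromatin genes nasp, hmgb3 and cbx3, btg4, plin2, rpain, the methyltransferase prmt1, the ribosomal gene rps3a and the glycolytic aldoa. For cdc20, the activator of the anaphase-promoting complex, the copies averaged 11.57 (.L) and 10.63 (.S), and for prmt1 11.79 and 11.42.

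The median absolute difference between the percentiles of the copies was 17.6 points. In 2 genes 1 copy was in the top and the other in the bottom 25%. The respiratory subunit cox4i2.S measured 10.26, 10.70, 10.18 and 10.21, whereas cox4i2.L measured 3.66, 3.53, 3.75 and 3.37. For the histone chaperone nap1l1 the order was turned, with nap1l1.L at 12.18, 12.48, 12.42 and 12.38 and nap1l1.S at 3.707, 4.015, 3.996 and 4.291. The values of the copies did not overlap on any array in either gene. Both genes were picked for that gap on the same arrays, so the separation is no further result.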

How the data were processed

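RNA from normal ovary was measured on 4 Affymetrix 1-colour arrays, 1 array a sample, grouped by title. The authors deposited log2 values for each probe set, which RMA produced per the submitters' processing notes. RMA corrects background, quantile normalizes arrays and summarises probes. The log base was read as 2 from the range of values. The base itself, the RMA version and any filter on probe sets were not given in the sources used here. Control probe sets in the table numbered 0. No scanner file was used, so detection above background was not tested, and the number of arrays limits the precision. Probe sequences follow X. laevis, and mismatches to the X. muelleri allele can lower a value.

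Values were used as deposited, averaged over 4 arrays and ranked over 11485 probe sets, with Python 3.11.15, pandas 2.3.3, numpy 2.4.6 and matplotlib 3.10.9. Gene symbols came from GEO's platform annotation, which can be old, with 6798 probe sets holding 1 symbol, 110 several and 4577 none listed. Genes were placed by their highest probe set. No test of a difference was run, since 1 group is described, and Dixon's criterion was applied only to mark an array far from the others. How the animals were related is not stated. The ranking code was tested on simulated data.

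Members and lists were chosen with earlier results of these data known. List patterns were also trimmed, after the files were seen, of genes whose names matched but which are not members. A list of mitochondrial genome genes matched 0 genes. Named genes were the 30 highest and 20 lowest genes, up to 6 members of each list at either end, 3 probe sets on each side of a limit, the 15 with the widest range, all well-known genes and all cell type markers. A further 19 genes were chosen after their values were seen, namely rpl34.L, ssr4.S, cox4i2.S, srd5a3.S, srd5a1.S, fdx1.L, tubb4b.S, ddx25.L, tdrd6.L, sox11.S, bmpr1a.L, cul1.L, ventx2.1.L, msx1.S, bambi.S, fgf4.L, cga.S, ahsg.L and h2ax.S. The other settings tried were another average, renormalization, named probe sets only, 1 probe set per gene, other limits and each array left out.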

Additional observations from a re-analysis of the deposited data

Results flagged for a closer look

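Among 247 of the genes named above, 35 had 1 array far from the other 3 by Dixon's criterion for 4 values, or 14.2%. The same held for 744 of all 11485 probe sets, or 6.48%. Chance alone flags about 1 in 20 groups, and the genes with the widest range were named for that range. All values are log2, each with the range of the remaining 3 arrays.

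Replicate 1 was low for ccnb1.2.L at 13.10 (others 13.18 to 13.20) and cga.S at 7.02 (others 7.45 to 7.53). Replicate 1 was high for bmpr1a.S at 3.29 (others 2.39 to 2.47), fhl1.L at 9.05 (others 3.58 to 4.07) and rpain.S at 12.98 (others 12.89 to 12.90).

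Replicate 2 was low for ahsg.L at 5.26 (others 7.75 to 7.95), bmpr1a.L at 8.55 (others 8.92 to 8.94), myc.S at 2.40 (others 8.64 to 8.82) and nasp.S at 9.43 (others 12.24 to 12.30). It was also low for tubb4b.S at 7.23 (others 10.33 to 10.56). Replicate 2 was high for atp5f1b.S at 12.34 (others 11.84 to 11.92), cox4i2.S at 10.70 (others 10.18 to 10.26), nasp.L at 11.26 (others 11.08 to 11.11) and pfkp.L at 5.03 (others 2.91 to 3.19).

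Replicate 3 was low for aifm2.S at 3.75 (others 8.85 to 9.88), myl12b.L at 2.87 (others 7.72 to 8.11), nkx2-5.S at 2.72 (others 3.18 to 3.24) and rpl28.L at 3.25 (others 3.33 to 3.34). Replicate 3 was high for cd74.L at 8.90 (others 6.74 to 6.99), cul1.S at 2.86 (others 2.50 to 2.53), ddt.L at 8.64 (others 2.54 to 3.57) and harbi1.L at 4.37 (others 3.925 to 3.997). It was also high for hk2.L at 5.98 (others 2.80 to 3.20), nol12.S at 9.26 (others 2.86 to 3.45) and tnnc2.L at 3.81 (others 3.65 to 3.65).

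Replicate 4 was low for 42sp50.L at 3.06 (others 8.65 to 9.09), ctsb.S at 9.56 (others 12.44 to 12.76), jpt2.L at 9.69 (others 10.06 to 10.13) and krt18.1.L at 8.45 (others 9.41 to 9.54). It was also low for psma3.L at 2.30 (others 2.66 to 2.72), sephs3.L at 3.13 (others 8.86 to 9.45) and tubb4b.L at 9.10 (others 12.31 to 12.61). Replicate 4 was high for elf1.L at 4.73 (others 3.75 to 3.87), gata1.L at 3.99 (others 3.29 to 3.36) and snrpf.S at 3.11 (others 2.61 to 2.67).

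Both nasp copies and both tubb4b copies were flagged, nasp on the same array and tubb4b on different arrays. The cause was not tested in any of these cases.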

How the results depend on the processing

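No paired analysis was possible because only 1 group is described. Shares kept on all arrays, ranges and correlations change by construction with the number of arrays and the limits. Leaving out 1 array moved the share of the top kept on every array to between 75.8% and 78.6%, that of the bottom 25% to between 76.5% and 77.9%, and the median range of percentile to between 6.52 and 7.24 points. With replicates 1 and 4 only these values were 85.7%, 86.5% and 3.37 points, with a correlation of 0.959, and with replicates 2 and 3 only they were 84.8%, 84.5% and 3.84 points. These pairs were chosen after seeing the data. With named probe sets only, the bottom share was 76.1% and the median range 8.31 points, and with 1 probe set per gene 78.2% and 8.01 points. A bottom 10% was kept on every array to 34.0% and a bottom 33.3% to 80.5%. Both homeologs were in the top in 8 genes at a top 2% and in 46 at a top 10%. Within the top, the median correlation between arrays was 0.816, against 0.945 over all probe sets. The number of lists whose median lay above that of all genes, of 39 with at least 5 genes, stayed between 22 and 24 under every setting run. The list medians themselves were less fixed, and 158 of 585 compared moved by more than their SD over arrays. So did 365 of 3705 percentiles of the 247 genes. Of 105 named genes in the top, 20 left it under at least 1 setting that kept the probe set, as did 10 of 84 in the bottom 25%. Placing a gene by its lowest probe set moved 37 of the same 247 genes beyond their spread over arrays. Many of the 247 have 1 probe set and could not move, so this share understates the dependence for genes with several. Signal over background was not available, so the order among low values is the least certain.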
